A study of Homo sapiens with 8 samples.

Results

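The mitochondrial ribosome is built from proteins encoded in the nucleus and from 2 RNAs encoded in mitochondrial DNA, and it makes the few core subunits of the respiratory chain that mitochondria encode themselves. Its genes were taken as the rows of the count table whose symbol was MRPL or MRPS followed by a number and, in some, a letter, with a mean of at least 1 CPM (counts per 1000000 counts of a library) over the 8 libraries. All 78 rows with such a symbol passed, 49 of the large (MRPL) and 29 of the small (MRPS) subunit, out of 58870 rows in all. All 78 were also among the 13860 genes that entered the test. The values came from bulk RNA sequencing of Panc 10.05, a human cell line established from an adenocarcinoma of the pancreas. The 4 control libraries came from cells labelled as control, with no further word on what they carried. The 4 ELAPOR1 libraries came from cells labelled as ELAPOR1 overexpression. ELAPOR1 is a membrane protein of endosomes and lysosomes, and the series asked whether it shifts the subtype and the metabolism of pancreatic cancer cells. The labels give neither the promoter that drove ELAPOR1, nor whether the line is 1 clone, nor whether replicates were separate cultures. The p-values therefore measure only the spread between these libraries.

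Its proteins are made in the cytosol, imported, and assembled on the ribosomal RNAs with the help of GTPases, helicases and RNA-modifying enzymes. The large subunit holds the peptidyl transferase centre and the exit tunnel, and the small subunit holds the decoding centre. Many of the proteins have a bacterial relative, and others are found only in mitochondria. Many nuclear genes for mitochondrial proteins have promoters without a TATA box, in which sites for ETS factors (GABPA), YY1 and NRF1 are common.

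Libraries held 13765504 to 18128732 counts, and ELAPOR1, listed under its older symbol KIAA1324, had 1 to 4 counts in control and 5910 to 7368 in ELAPOR1 libraries, as labelled. All 8 epithelial and ductal markers examined reached 1 CPM, and their sum was 12011 to 13283 CPM in control and 11238 to 11581 CPM in ELAPOR1 libraries, which did not overlap. The single markers went both ways. KRT8, KRT18 and MUC1 were lower with ELAPOR1 without overlap (KRT18 4440 to 4963 CPM in control, 3553 to 3729 with ELAPOR1). KRT7, KRT19 and CDH1 were higher without overlap (KRT7 1034 to 1159 CPM in control, 1367 to 1397 with ELAPOR1), and EPCAM and KRT17 overlapped. Acinar and endocrine markers summed to at most 0.246 CPM in any library. Among leukocyte markers, CD68 reached 1 CPM (81.8 to 87.8 in control, 72.6 to 78.8 with ELAPOR1) and CD3E was at 0. Of 4 fibroblast markers only COL1A1 did (2.71 to 4.27 CPM over all libraries), with COL1A2, DCN and LUM at 0. Of 3 endothelial markers only VWF did, and only in control libraries (1.55 to 1.95 CPM), with CDH5 at 0. With ELAPOR1, VWF was lower without overlap (0.576 to 0.865 CPM). The part of these differences in the results below was not tested. Values below are CPM scaled by TMM, which sets libraries on a shared scale. They are shares of the RNA sequenced in bulk, so fewer cells with a transcript and less of it per cell cannot be told apart.

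The genes with the largest rise and the largest fall in each subunit were MRPL1 and MRPL43 (large) and MRPS12 and MRPS21 (small), and their promoter windows are shown because the family is known for shared promoter sites. Each window runs 5′ to 3′ on the gene's strand, from 250 bases before the RefSeq start to 30 bases after it (GRCh38.p14). The window of MRPL1 lies at chr4:77862580-77862859 on the plus strand, MRPL43 at chr10:100987468-100987747 on the minus strand, MRPS12 at chr19:38930694-38930973 on the plus strand and MRPS21 at chr1:150293611-150293890 on the plus strand. The GENCODE gene starts, used below for overlaps and neighbours, differ from the RefSeq starts. For MRPL1 (77862520) and MRPS12 the GENCODE start lies upstream of the whole window, so these windows hold only for the RefSeq start. Capitals mark matches to any of 5 motifs, searched on both strands: CCGGAAG (the ETS core bound by GABPA), AAGATGGC (YY1), the NRF1 motif, the ZNF143 motif and the E-box CACGTG, at which MYC binds. The ETS and YY1 motifs can overlap, since the first ends and the second begins with AAG.
MRPL1: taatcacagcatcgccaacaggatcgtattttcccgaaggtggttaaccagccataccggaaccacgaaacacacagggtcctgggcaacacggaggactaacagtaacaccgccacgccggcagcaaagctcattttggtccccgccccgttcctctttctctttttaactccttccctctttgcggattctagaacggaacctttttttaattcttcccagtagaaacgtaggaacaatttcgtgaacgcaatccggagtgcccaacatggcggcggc
MRPL43: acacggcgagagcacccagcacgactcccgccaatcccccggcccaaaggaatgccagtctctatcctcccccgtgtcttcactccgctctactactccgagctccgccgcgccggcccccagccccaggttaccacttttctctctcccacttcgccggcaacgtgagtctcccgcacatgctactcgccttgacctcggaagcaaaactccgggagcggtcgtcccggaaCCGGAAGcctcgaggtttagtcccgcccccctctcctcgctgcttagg
MRPS12: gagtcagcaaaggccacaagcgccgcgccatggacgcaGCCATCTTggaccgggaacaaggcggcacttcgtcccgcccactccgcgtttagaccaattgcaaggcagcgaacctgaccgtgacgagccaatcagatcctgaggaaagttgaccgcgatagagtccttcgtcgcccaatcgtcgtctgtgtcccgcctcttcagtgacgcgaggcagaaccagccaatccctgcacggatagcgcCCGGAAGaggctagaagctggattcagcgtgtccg
MRPS21: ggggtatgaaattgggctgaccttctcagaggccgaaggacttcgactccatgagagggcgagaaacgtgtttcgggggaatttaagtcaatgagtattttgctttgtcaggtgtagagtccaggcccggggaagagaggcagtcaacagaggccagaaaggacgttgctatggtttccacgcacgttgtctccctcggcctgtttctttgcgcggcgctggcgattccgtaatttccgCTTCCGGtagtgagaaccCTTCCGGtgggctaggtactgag
MRPL43 has 1 ETS match, MRPS21 has 2 on the opposite strand, MRPS12 has an ETS and a YY1 match, and MRPL1 has none of the 5 in this window. Windows of 300 bases (250 before and 50 after the start, the first start listed per gene) were matched by symbol for 69 of the 78 genes. The ETS core was found in 29 of them (42.03%), against 20.2% of 9913 tested genes with a window and 10.3% of all 35116 windows. The YY1 motif was found in 20 (28.99%), against 5.63% and 2.89%. Fewer windows held the other motifs, with NRF1 in 8 (11.6%, against 12.1% of tested genes), the ZNF143 motif in 6 (8.70%, against 4.14%) and the E-box in 6 (8.70%, against 10.2%). A match describes these letters only, and 8 genes held both the ETS and the YY1 motif.

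Changes in the genes of the mitochondrial ribosome were small in cells overexpressing ELAPOR1. Of the 78 genes, 22 (28.2%) passed an edgeR adjusted p-value under 0.05, 9 higher and 13 lower, where 44.7% of all tested genes passed, 22.6% higher and 22.1% lower. Among the 8122 tested genes whose mean level lay inside the range of the 78 (12.5 to 213 CPM), 52.2% passed, 27.3% higher and 24.9% lower. The split between directions moved with the scaling: 11 were higher and 10 lower with total count scaling, and 18 were higher and 12 lower once each library's trend with GC content and transcript length was removed, where 45.9% of all genes passed. The median log2 fold change was -0.017 for the large and -0.011 for the small subunit, and it was 0.00087 over all tested genes. The median size of the change, whatever its direction, was 0.087 on the log2 scale for the 78 genes and 0.14 for the genes of like level.

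Intervals were narrow. Fitted folds ran from 0.800 (MRPL43) to 1.27 (MRPL1), and the 95% intervals of all 78 lay inside a 1.5-fold change either way, the widest bounds being 1.44-fold up (MRPL1) and 0.744-fold down (MRPL43). The share inside 1.5-fold was 72.8% of all tested genes and 93.5% of those of like level. The intervals of 54 of the 78 (69.2%) lay inside a 1.2-fold change, against 35.2% of all tested genes and 52.1% of those of like level. With edgeR's test against a 1.2-fold change (glmTreat), 0 of the 78 passed at an adjusted p under 0.05 and 2 at an unadjusted p under 0.05, while 11.1% of all tested genes passed. The groups did not overlap in CPM for 19 of the 78 (24.4%), against 39.2% of all tested genes and 45.7% of those of like level.

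**Figure D1:**
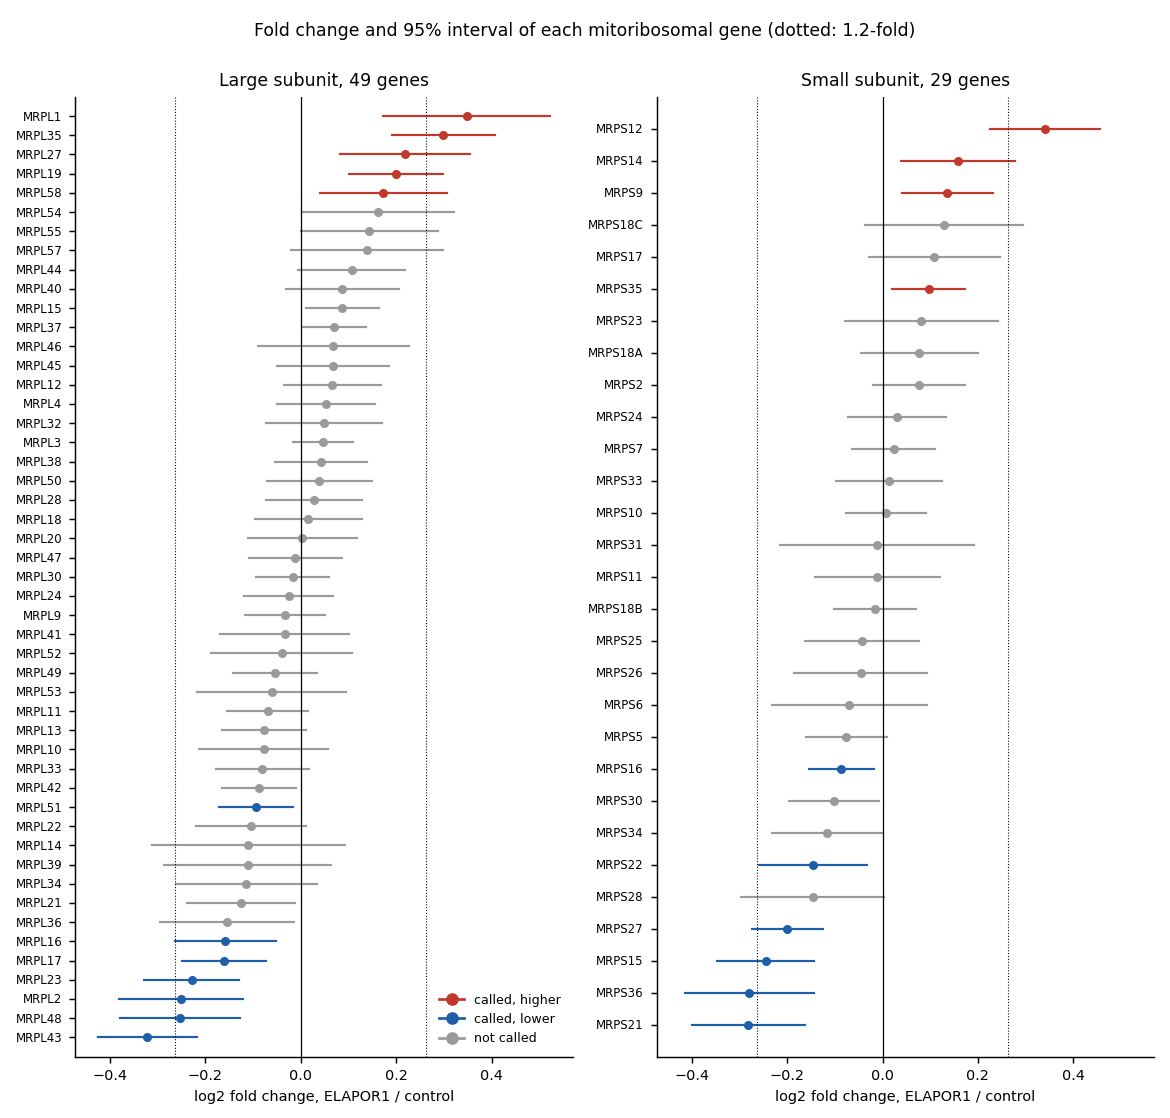
Log2 fold change (horizontal axis, ELAPOR1 over control) of each mitoribosomal gene with its 95% interval, large subunit on the left and small subunit on the right, ordered by size. Red and blue genes passed the edgeR test (9 higher, 13 lower), grey ones did not, and dotted lines mark a 1.2-fold change, inside which 54 of 78 intervals lie.

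Summed levels of each subunit overlapped between the groups. The 49 large-subunit genes summed to 2736, 2837, 2888 and 2907 CPM in the control libraries and to 2872, 2837, 2801 and 2804 CPM in the ELAPOR1 libraries. The 29 small-subunit genes summed to 1571, 1647, 1628 and 1680 CPM in control and to 1628, 1611, 1600 and 1555 CPM in ELAPOR1 libraries. The control libraries reached both above and below the ELAPOR1 libraries in the large subunit. In the small subunit the highest value was in control and the lowest in ELAPOR1 libraries, with the others mixed. The ratio of the large to the small sum averaged 1.74 ± 0.0227 in the control libraries and 1.77 ± 0.0232 with ELAPOR1 (SD, n = 4 each), with ranges that overlapped (1.72 to 1.77 and 1.75 to 1.80).

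**Figure D2:**
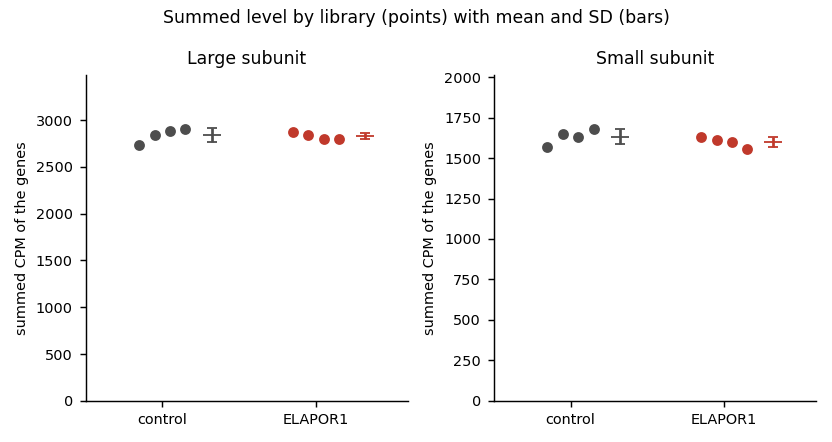
Summed CPM of the 49 large-subunit and the 29 small-subunit genes (vertical axes, from 0) in each library, with mean and SD at the right of each group of 4. The points of the groups overlap in both panels.

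Of the 49 large-subunit genes, 12 (24.5%) passed the test, 5 higher and 7 lower. Of all tested genes 44.7% passed, and 52.2% of those of like level. MRPL1, the relative of bacterial L1, a protein of the stalk by which spent tRNA leaves, was at 13.6, 13.4, 15.9 and 13.2 CPM in control and 16.2, 18.7, 19.7 and 17.02 CPM in ELAPOR1 libraries. All ELAPOR1 libraries were above all control libraries, and the rise was the largest of the 78, a log2 fold change of 0.35 with an SE of 0.086 (edgeR adjusted p = 1.2e-03). MRPL35, the relative of bacterial L35, was at 41.0, 39.3, 37.8 and 38.1 CPM in control and 45.4, 47.4, 49.2 and 50.3 CPM in ELAPOR1 libraries. Its groups did not overlap (log2 fold change 0.30, SE 0.053, edgeR adjusted p = 1.9e-05).

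The other rises of the large subunit were smaller. MRPL27, whose bacterial relative reaches into the peptidyl transferase centre, rose from 22.1 ± 1.06 to 25.8 ± 1.12 CPM (log2 fold change 0.22, edgeR adjusted p = 8.3e-03) with no overlap. MRPL19, the relative of bacterial L19, rose by 0.20 (edgeR adjusted p = 1.2e-03), although control replicate 1, at 98.3 CPM, was above ELAPOR1 replicate 2, at 97.1 CPM. MRPL58, also called ICT1, is a peptidyl-tRNA hydrolase that became a structural part of the subunit. It rose from 28.1 ± 2.19 to 31.6 ± 1.80 CPM with overlapping groups (log2 fold change 0.17, edgeR adjusted p = 0.031). That call was lost with DESeq2 (adjusted p = 0.060) and without ELAPOR1 replicate 1 or 4 or control replicate 1 or 2 (edgeR adjusted p = 0.080 to 0.13).

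MRPL43, a protein found only in mitochondrial ribosomes, showed the largest fall of the family. It was at 49.8, 53.8, 55.4 and 55.8 CPM in control and 41.7, 42.6, 42.4 and 44.8 CPM in ELAPOR1 libraries, with a gap between the groups (log2 fold change -0.32, SE 0.051, edgeR adjusted p = 3.7e-06). The exons of MRPL43 (ENSG00000055950.16, chromosome 10, 100969458 to 100987515 on GRCh38, minus strand) overlap those of SEMA4G and TWNK on the other strand, and reads of such genes cannot be told apart without strand. The same limit holds for 11 of the 22 called genes, MRPL43 included, among them MRPL2, MRPL19, MRPL51, MRPS16 and MRPS27. MRPL48, a protein of the central protuberance, was at 29.5, 31.9, 32.5 and 31.3 CPM in control and 25.7, 27.7, 26.3 and 25.4 CPM in ELAPOR1 libraries. The groups were apart (log2 fold change -0.25, SE 0.062, edgeR adjusted p = 1.1e-03).

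MRPL2, the relative of the bacterial protein beside the peptidyl transferase centre, fell by 0.25 on the log2 scale (edgeR adjusted p = 1.6e-03). At the mouth of the exit tunnel, MRPL23 fell from 72.9 ± 5.91 to 62.2 ± 0.421 CPM (log2 fold change -0.23, edgeR adjusted p = 2.5e-04) and MRPL17 from 72.4 ± 1.35 to 64.7 ± 2.63 CPM (log2 fold change -0.16, edgeR adjusted p = 2.9e-03). MRPL16, the relative of bacterial L16, fell by 0.16 (edgeR adjusted p = 0.014), a call lost without control replicate 3 (edgeR adjusted p = 0.071). MRPL51, outside the rule by which genes were named, is given to complete the count, at -0.094 (edgeR adjusted p = 0.046). With GC and length trends removed it was -0.059 and was not called (edgeR adjusted p = 0.21). The remaining 37 large-subunit genes had log2 fold changes from -0.15 to 0.16.

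Of the 29 small-subunit genes, 10 (34.5%) passed, 4 higher and 6 lower, again beside 44.7% of all tested genes and 52.2% of those of like level. MRPS12, the decoding-centre protein whose bacterial relative carries streptomycin resistance mutations, was at 35.6, 39.2, 36.6 and 39.8 CPM in control and 51.3, 46.8, 49.3 and 44.1 CPM in ELAPOR1 libraries. Every ELAPOR1 library was above every control library (log2 fold change 0.34, SE 0.056, edgeR adjusted p = 6.8e-06). MRPS12 (ENSG00000128626.11, chromosome 19, 38930548 to 38933162 on GRCh38, plus strand) overlaps exons of SARS2, the mitochondrial seryl-tRNA synthetase, which lies head to head with it and also rose (log2 fold change 0.21, edgeR adjusted p = 0.026). MRPS14 and MRPS9, with bacterial relatives, and MRPS35, found only in mitochondria, rose by 0.16, 0.14 and 0.097 (edgeR adjusted p = 0.028, 0.017 and 0.034). MRPS14 was not called with DESeq2 (adjusted p = 0.053) or without ELAPOR1 replicate 1 or 3 or control replicate 1, and MRPS9 was not without ELAPOR1 replicate 4 or control replicate 3. MRPS35 was lost in 9 settings, 5 of them single libraries left out (ELAPOR1 replicates 2, 3 and 4, control replicates 2 and 3). The count of called small-subunit genes dropped to 6 without ELAPOR1 replicate 3 and likewise without ELAPOR1 replicate 4.

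Falls in the small subunit were led by MRPS21, the relative of bacterial S21. It was at 42.5, 48.9, 47.9 and 48.7 CPM in control and 40.0, 39.5, 40.5 and 34.8 CPM in ELAPOR1 libraries, with no overlap (log2 fold change -0.28, SE 0.058, edgeR adjusted p = 1.6e-04). MRPS36 was at 34.0, 36.3, 39.9 and 36.3 CPM in control and 33.1, 28.1, 32.2 and 27.4 CPM in ELAPOR1 libraries, also apart (log2 fold change -0.28, SE 0.066, edgeR adjusted p = 7.6e-04). Despite its symbol, MRPS36 is known as a subunit of the 2-oxoglutarate dehydrogenase complex and not of the ribosome. MRPS15, the relative of bacterial S15, fell from 59.7 ± 3.05 to 50.4 ± 2.35 CPM (log2 fold change -0.24, edgeR adjusted p = 1.3e-04). MRPS27, an RNA-binding pentatricopeptide repeat protein, fell from 136 ± 1.73 to 118 ± 5.21 CPM (log2 fold change -0.20, edgeR adjusted p = 3.1e-05). MRPS22 (-0.15, edgeR adjusted p = 0.032) and MRPS16 (-0.087, edgeR adjusted p = 0.034) passed narrowly. Neither was called without ELAPOR1 replicate 1, 3 or 4 or control replicate 2 or 4, nor MRPS16 without control replicate 3. MRPS16 was also lost with GC and length trends removed (with and without the replicate block), with no filter and with total count scaling (edgeR adjusted p = 0.059 to 0.11), and MRPS22 with DESeq2 (adjusted p = 0.055) and total count scaling (edgeR adjusted p = 0.066). The 19 that did not pass had log2 fold changes from -0.15 to 0.13.

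The MRPS18 paralogs, which descend from 1 bacterial protein, did not pass the test. MRPS18A, which structures place in the large subunit despite its symbol, was at 36.4 ± 2.93 CPM in control and 38.4 ± 1.74 CPM in ELAPOR1 libraries (95% interval of the fold 0.969 to 1.15). MRPS18B was at 90.0 ± 4.32 and 88.9 ± 3.30 CPM (0.932 to 1.05) and MRPS18C at 16.2 ± 1.01 and 17.7 ± 1.47 CPM (0.975 to 1.23). MRPL12, the stalk protein that recruits translation factors, was at 103 ± 8.995 CPM in control and 108 ± 4.47 CPM in ELAPOR1 libraries, a log2 fold change of 0.066 (edgeR adjusted p = 0.29). It was 0.17 and passed (edgeR adjusted p = 4.4e-04) once GC and length trends were removed, and 0.12 without control replicate 4 (edgeR adjusted p = 0.020).

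Per kilobase of median annotated transcript, levels spanned 8.75 to 290 CPM per kb. In the large subunit MRPL3, the relative of bacterial L3, was highest (290 CPM per kb) and MRPL57 lowest (8.75). In the small subunit MRPS27 was highest (225) and MRPS6 lowest (17.98). Which isoform was expressed was not measured, so this order depends on the annotated lengths. None of MRPL3, MRPL57 and MRPS6 passed the test, with log2 fold changes of 0.046, 0.14 and -0.069. MRPL57 passed without ELAPOR1 replicate 4 (0.20, edgeR adjusted p = 0.047).

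By structural class, proteins with a bacterial relative passed in 8 of 30 cases in the large subunit (4 higher, 4 lower) and in 6 of 18 in the small (3 higher, 3 lower). These shares are 26.7% and 33.3%. For comparison with all counts of this paragraph, 44.7% of all tested genes passed, and 52.2% of those of like level. Subunits here follow the symbols and not structures, so MRPS18A and MRPS30 are counted in the small subunit. Neither of them passed. Proteins found only in mitochondria passed in 4 of 19 (1 higher, 3 lower) and 4 of 11 (1 higher, 3 lower). The last list holds MRPS36, and without it 3 of 10 passed (1 higher, 2 lower). The stalk that binds translation factors (MRPL10, MRPL11, MRPL12, MRPL53, MRPL54) had 0 of 5 called by edgeR, DESeq2 or limma-voom, and 1 at an unadjusted edgeR p under 0.05. With GC and length trends removed 2 of the 5 passed, MRPL54 at 0.25 (edgeR adjusted p = 4.6e-03) and MRPL12 at the value above, and leaving out control replicate 1, 3 or 4 gave 1 call each. The central protuberance had 3 of 9 (2 higher, 1 lower) and the tunnel exit 2 of 8, both lower. Of the 5 subunits with other symbols, DAP3, a GTP-binding protein of the small subunit, was called at 0.085 (edgeR adjusted p = 0.048). That call was lost in 11 of 18 alternatives, among them DESeq2 (adjusted p = 0.070), the replicate block (edgeR adjusted p = 0.077) and leaving out ELAPOR1 replicate 1, 2 or 4 or control replicate 1, 2 or 3. CHCHD1 fell by 0.20 (edgeR adjusted p = 5.2e-03), and AURKAIP1, GADD45GIP1 and PTCD3 did not pass. The ribosomal RNAs of mitochondria overlapped between groups. MT-RNR1, the small rRNA, averaged 362 ± 8.74 CPM in control against 349 ± 11.0 CPM with ELAPOR1, and MT-RNR2, the large rRNA, 5595 ± 151 against 5570 ± 58.0 CPM. Neither of these 2 passed with edgeR, DESeq2 or limma-voom, and 0 passed at an unadjusted edgeR p under 0.05.

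Genes that build and modify the mitochondrial ribosome were mostly higher among those called. Of 32 assembly and rRNA-modification genes, 19 (59.4%) passed, 14 higher and 5 lower, beside 44.7% of all tested genes and 52.2% of those in the level range of the ribosomal proteins, and the median over the list was 0.13 on the log2 scale. MRM1, which methylates the 16S rRNA, was at 6.32, 6.90, 5.57 and 4.94 CPM in control and 9.33, 8.92, 8.93 and 7.50 CPM in ELAPOR1 libraries, with no overlap (log2 fold change 0.54, SE 0.12, edgeR adjusted p = 5.6e-04). MRM3, another 16S methyltransferase, rose from 9.33 ± 1.38 to 13.1 ± 1.61 CPM (log2 fold change 0.49, edgeR adjusted p = 3.6e-04), although the highest control and the lowest ELAPOR1 library overlapped. RMND1, an inner-membrane protein needed for mitochondrial translation, fell from 14.0 ± 0.890 to 10.6 ± 0.364 CPM (log2 fold change -0.40, edgeR adjusted p = 3.9e-04). Over all alternative settings, 17 to 21 of the 32 passed, 12 to 17 of them higher. DDX28 (0.26, called) lies on chromosome 16 between 66 and 74 Mb, where genes centred on 0.21 (log2). NDUFAB1 (0.11, not called) lies on chromosome 16 between 0 and 36 Mb, where genes centred on 0.090. The part of these stretches in the list was not tested. The difference between this list and the ribosomal proteins was not tested.

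Translation factors of mitochondria went both ways, with 8 of 20 (40.0%) called, 5 higher and 3 lower, a share near the 44.7% of all tested genes. GFM1, the elongation factor that moves the ribosome along the mRNA, was at 80.7, 79.5, 84.1 and 74.7 CPM in control and 107, 105, 111 and 107 CPM in ELAPOR1 libraries. Its groups did not overlap (log2 fold change 0.43, SE 0.041, edgeR adjusted p = 1.2e-10). OXA1L, which inserts new chains into the inner membrane, was at 63.6, 64.6, 64.4 and 65.2 CPM in control and 47.6, 48.6, 49.6 and 50.6 CPM in ELAPOR1 libraries, lower in all 4 (log2 fold change -0.39, SE 0.046, edgeR adjusted p = 9.5e-09). PDF, which removes the formyl group from new chains, rose from 13.0 ± 1.32 to 18.3 ± 0.853 CPM (log2 fold change 0.48, edgeR adjusted p = 1.6e-05). PDF lies on chromosome 16 between 66 and 74 Mb, a stretch whose 87 genes at or above 5 CPM centred on 0.21 (log2). TUFM, also called (0.25), lies on chromosome 16 between 0 and 36 Mb, where genes centred on 0.090. The part of these stretches in the rises of PDF and TUFM was not tested.

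Regulators of such genes were also mixed. Of 8 genes of mitochondrial DNA transcription and replication, 4 passed, 3 higher (TEFM at 0.31, TFB2M at 0.19 and TFAM) and 1 lower (POLG2 at -0.32). TEFM lost its call with DESeq2 (adjusted p = 0.061) and without ELAPOR1 replicate 1 or 4 or control replicate 1, and TFB2M without ELAPOR1 replicate 1, 3 or 4 or control replicate 4 and with the replicate block and GC and length trends removed together (edgeR adjusted p = 0.059). Of 9 nuclear regulators, 5 passed, 2 higher and 3 lower. Beside the counts of both lists, 44.7% of all tested genes passed, and 52.2% of those in the level range of the ribosomal proteins. Whether either list differed from these shares was not tested. PPRC1, a coactivator of the PGC-1 family, rose from 123 ± 7.72 to 158 ± 2.70 CPM (log2 fold change 0.36, edgeR adjusted p = 1.5e-09). ESRRA, a nuclear receptor partner of that family, fell from 80.1 ± 3.04 to 61.0 ± 3.90 CPM (log2 fold change -0.39, edgeR adjusted p = 1.8e-08). Of the factors whose motifs were searched, GABPA fell by 0.14 (edgeR adjusted p = 0.027) and its partner GABPB1 rose by 0.22 (edgeR adjusted p = 3.3e-03). YY1 fell by 0.093 (edgeR adjusted p = 0.032), and NRF1 (0.10) and MYC (-0.026) did not pass. ZNF143, whose motif was also searched, was not in this list. The call of GABPA was lost in 4 of 18 alternatives (total count scaling, and without ELAPOR1 replicate 1 or 3 or control replicate 3; edgeR adjusted p = 0.058 to 0.15). The call of YY1 was lost in 8 of 18, among them the replicate block (edgeR adjusted p = 0.051), GC and length removal (0.061), total count scaling (0.10) and leaving out ELAPOR1 replicate 2 or control replicate 2 or 3.

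Cytosolic ribosomal proteins were lower almost throughout. Of 81 such genes, 79 (97.5%) passed, all 79 lower, and their median log2 fold change was -0.37, where 22 of 78 mitochondrial ones passed in both directions around a median of -0.013. RPL3, in the same protein family as MRPL3, was at 1761, 1878, 1899 and 2033 CPM in control and 1298, 1282, 1245 and 1251 CPM in ELAPOR1 libraries (log2 fold change -0.58, edgeR adjusted p = 2.0e-14). MRPL3 itself was at 217, 209, 211 and 203 CPM in control and 217, 220, 216 and 214 CPM in ELAPOR1 libraries, with overlap (95% interval of the fold 0.988 to 1.08). The next largest falls were those of RPL4 (-0.51) and RPL26 (-0.50). The levels of the 2 families also differ, with a median of 670 CPM against 43.4 CPM, so precision is not alike, and no test compared the lists. Across TMM, DESeq2, total count and upper-quartile scaling, 76 to 79 of the cytosolic genes were called lower. Nuclear-encoded subunits of respiratory complex I, which contains several products of the mitochondrial ribosome, had a median of -0.070, between those of the 2 families. Of these 37 genes, 15 (40.5%) were called, 3 higher and 12 lower, beside 44.7% of all tested genes and 52.2% of those of like level. The largest falls there were those of NDUFB5 (-0.31), NDUFV2 (-0.30) and NDUFS4 (-0.25). NDUFV2 lies on chromosome 18 between 0 and 15 Mb, where 45 genes at or above 5 CPM centred on -0.22 (log2), and the part of that in its fall was not tested.

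**Figure D3:**
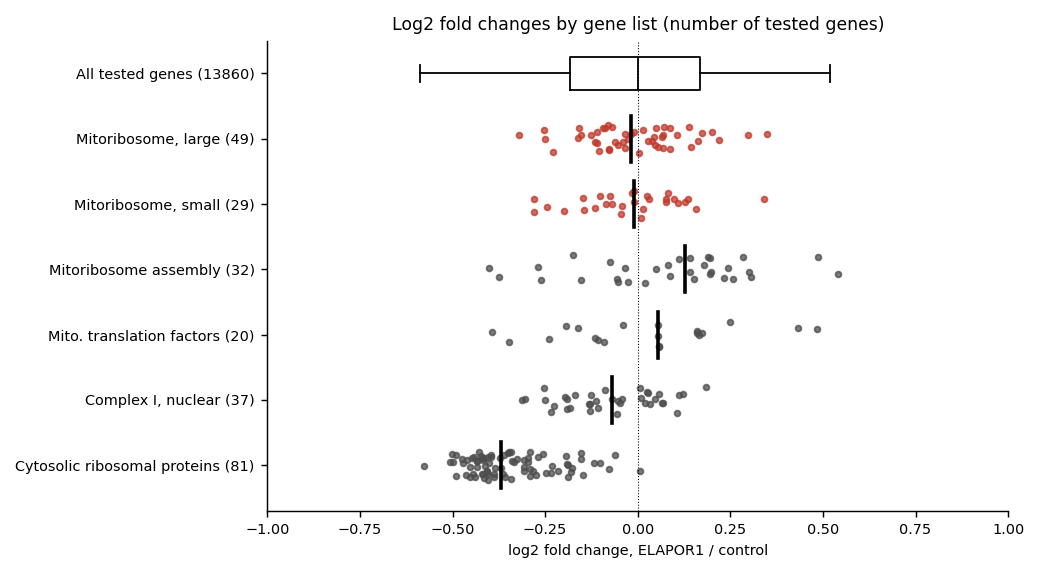
Log2 fold changes (horizontal axis, ELAPOR1 over control) of each gene in 6 lists, with the list median as a black bar, and over all 13860 tested genes as a box (quartiles and median) with whiskers at the 5th and 95th percentiles. The 2 mitoribosomal lists centre near 0, and the cytosolic ribosomal proteins centre at -0.37.

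**Figure D4:**
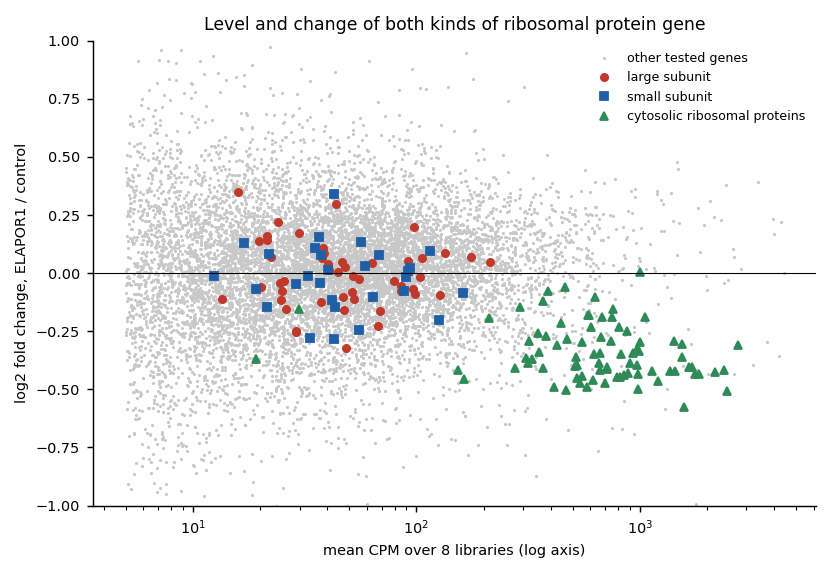
Log2 fold change (vertical axis) against mean CPM over 8 libraries (horizontal log axis) for tested genes between 5 and 5000 CPM, with genes beyond 1 log2 unit outside the frame. Large (red circles) and small (blue squares) mitoribosomal genes spread around 0, while cytosolic ribosomal proteins (green triangles) lie at higher levels and mostly below 0.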

How the data were processed

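RNA was measured in 4 control and 4 ELAPOR1 libraries, grouped by the labels. The authors deposited 1 table of expected counts per gene, unscaled between libraries. cutadapt, STAR, RSEM, DESeq2 and the build hg38 are named in the submitters' processing notes; versions, annotation and use of strand are not given in the sources used here. Of nonzero values, 15.0% were not whole.

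Rounded counts went into edgeR 4.0.16 (R 4.3.3): filterByExpr, TMM, robust quasi-likelihood test, two-sided, no covariate, Benjamini-Hochberg adjustment over 13860 genes, called under 0.05. The SE is the log2 fold change divided by the square root of F, and 95% intervals use its degrees of freedom. Coordinates, overlaps, lengths and GC content are from GENCODE 29 (GRCh38). The procedure was tested on simulated data.

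The members and lists were chosen with earlier results of these data known; lists were recalled from textbook and structural knowledge. Genes named were, per subunit, the 6 largest rises and 6 largest falls called at 5 CPM or more, the highest and lowest per kilobase, MRPS18A, MRPS18B, MRPS18C, MRPL12, MRPS12 and MRPL58, the called subunits under other symbols, and the 3 largest called changes of each other list. Alternatives were other scalings, DESeq2 1.42.0, limma-voom (limma 3.58.1), other filters and thresholds, a replicate block, libraries left out, removal of GC and length trends (splines with 5 degrees of freedom), and other memberships. Promoter motifs were chosen after the data were seen. Replicate numbers were not used to pair the libraries in the main fit.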

Additional observations from a re-analysis of the deposited data

Results flagged for a closer look

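In 3 of 62 groups of 4 libraries examined (named genes, subunit sums and their ratio), 1 library stood away from the rest by more than Dixon's 95% critical share of the range, and chance gives about 3.1 such groups. MRPL1 was at 15.9 CPM in control replicate 3 and at 13.2 to 13.6 CPM in the other control libraries. MRPL17 was at 60.8 CPM in ELAPOR1 replicate 1 and at 65.7 to 66.6 CPM in the other ELAPOR1 libraries. MRPS21 was at 42.5 CPM in control replicate 1 and at 47.9 to 48.9 CPM in the other control libraries. The groups of each of these 3 genes did not overlap.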

How the results depend on the processing

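Of the 21 named MRPL and MRPS genes that passed, 14 did so in the same direction under all 18 alternatives, and none reversed. The 18 do not include the threshold of 0.01 or the test against a 1.2-fold change, which are given below. The uncalled MRPS18B (-0.015) changed sign with total count scaling (0.0061) and without ELAPOR1 replicate 2 (0.0086) or control replicate 4 (0.013), within a range of -0.046 to 0.013 with single libraries left out. Large-subunit calls (12) were 20 with GC and length trends removed, where 30 of all 78 genes passed (18 higher, 12 lower), 20 of them shared with the 22; the cause was not tested. They were 10 to 17 with single libraries left out. Small-subunit calls (10) were 6 to 10 with single libraries left out (6 without ELAPOR1 replicate 3 or 4) and 5 at an adjusted p under 0.01. Against a 1.2-fold change both counts were 0. Chosen after seeing the data, genes with no exon overlap gave 7 of 25 large (median 0.015, against -0.017) and 4 of 12 small calls, fewer because fewer genes remain. Total count scaling gave 11 higher and 10 lower in place of 9 and 13. With the replicate block, 11 large and 9 small calls were made and MRPS35, DAP3 and YY1 lost their calls (edgeR adjusted p = 0.059, 0.077 and 0.051). Deviations of same-numbered libraries correlated at -0.021 to 0.033 over all genes, and those of differently numbered ones at -0.068 to 0.078. The labels do not say whether the numbers pair libraries, and a correlation over all genes cannot exclude a pairing that touched few of them. With a median SE of 0.055, changes of a few percent were not detectable.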

Other observations

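Many mitoribosomal genes share a start region with a gene on the other strand. Within 1000 bases of the start, 26 of the 78 had a tested protein-coding neighbour that starts on the opposite strand, in 27 pairs (MRPL46 and MRPS11 are neighbours of each other and are counted from both sides). Of the 27 neighbours 11 (40.7%) passed, 4 higher and 7 lower, near the 44.7% of all tested genes. In 3 pairs both genes passed, in the same direction for MRPL27 with EME1 (0.22 and 0.51 on the log2 scale) and MRPS12 with SARS2 (0.34 and 0.21), and in opposite directions for MRPL51 with NCAPD2 (-0.094 and 0.12). MRPL43 fell by 0.32 while TWNK, the mitochondrial helicase on its other side, was at 38.8 ± 1.87 and 42.03 ± 2.87 CPM and did not pass (0.11, edgeR adjusted p = 0.10). MRPL47 did not pass (-0.011) while its neighbour NDUFB5, a complex I subunit, fell by 0.31 (edgeR adjusted p = 1.0e-07).

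Genes with and without the promoter motifs had medians close to each other. The median log2 fold change was -0.011 with the ETS core (29 genes, 10 called, 3 higher and 7 lower) and 0.0021 without it (40 genes, 8 called). It was 0.0055 with the YY1 motif (20 genes, 3 called) and -0.011 without it (49 genes, 15 called). Beside these counts, 44.7% of all tested genes passed, and 52.2% of those of like level. These are descriptions with no test.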
